A study of Mus musculus with 25 samples.

Results

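The mir-30 family of mouse microRNAs comprised 7 hairpins (precursors) among the 1193 in the deposited count table, chosen by name: mmu-mir-30a, mmu-mir-30b, mmu-mir-30c-1, mmu-mir-30c-2, mmu-mir-30d, mmu-mir-30e and mmu-mir-30f, written below without the species prefix. All 7 passed the filter on low counts, which 855 other hairpins did not. They were read in the blood of C57BL/6 mice, inbred and male, aged 2, 9, 15, 24 or 30 months, with 5 small RNA libraries at each age and no other treatment or allele in the labels. Each of the 25 libraries carries its own animal number, and the question the design puts is how blood microRNAs differ with age. Libraries held 4.88 to 24.25 M (mega) counts. The 24 months replicate 4 library was the smallest, and the 30 months libraries averaged 9.89 ± 2.71 M counts, against 18.84 ± 2.81 M for 2 months (mean ± SD of 5). Levels are in CPM, counts per M counts of a library, with library sizes scaled by the trimmed mean of M-values (TMM), and 3 counts correspond to at most 0.614 CPM in any library.

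MicroRNAs guide Argonaute proteins to messenger RNAs, mainly by pairing of the seed, the bases near the 5′ end, and a family is a set of microRNAs that share this seed and hence many predicted targets. The mir-30 family is abundant in kidney podocytes, heart and many other tissues, and is known as a brake on epithelial-mesenchymal transition and fibrosis, through targets such as Snai1 and connective tissue growth factor, and on autophagy, through Beclin 1. In blood most microRNA is carried by red cells, with smaller parts from leukocytes, platelets and plasma.

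Mature sequences are shown for the members that the results turn on, since they show which hairpins a read could come from. They are from RefSeq on GRCm38.p6, whose table matched 5 of the 7 members, and run 5′ to 3′ with bases 2 to 8, the seed, in capitals. Members without an entry, mir-30b and mir-30d, are named only. The products of the 5′ arm shared a seed and their first 12 bases:
miR-30a-5p: uGUAAACAuccucgacuggaag
miR-30c-5p: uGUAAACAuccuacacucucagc
miR-30e-5p: uGUAAACAuccuugacuggaag
The first and the last of these, of 22 bases each, differ by 1 substitution, C13U, with the base of miR-30a-5p first and positions counted from the 5′ end. The table lists 1 product, of 23 bases, under both mir-30c hairpins, so a read of it names neither. Of the 1679 distinct mature names in that table, 4 have this seed, and the only one outside the family is that of mir-384, a hairpin that held 0 to 8 counts per library:
miR-384-5p: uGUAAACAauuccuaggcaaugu
The products of the 3′ arm separate the mir-30c copies and fall into another pair of seeds:
miR-30a-3p: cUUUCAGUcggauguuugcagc
miR-30e-3p: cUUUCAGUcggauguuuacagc
miR-30c-1-3p: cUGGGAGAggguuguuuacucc
miR-30c-2-3p: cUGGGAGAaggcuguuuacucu
From miR-30a-3p to miR-30e-3p the single substitution was G18A, and from miR-30c-1-3p to miR-30c-2-3p there were 3, G9A, U12C and C22U. The seed of mir-30f is set 1 base further along:
miR-30f: gUAAACAUccgacugaaagcuc
Its reverse complement lies inside the mir-30e hairpin, where 19 of its 22 bases lie opposite miR-30e-3p, and it shares a run of 10 bases with miR-30e-5p.

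The family sits in 3 places of the genome (GRCm38.p6, RefSeq). On chromosome 1, mir-30a (chr1:23272269-23272339, plus strand) overlapped no other annotated gene and lay 19361 bases from mir-30c-2 (chr1:23291701-23291784, plus strand), which lies in an exon of the long non-coding RNA Gm27028. On chromosome 4, mir-30c-1 (chr4:120769534-120769622, minus strand) and mir-30e (chr4:120772606-120772697, minus strand), 2983 bases apart, both lie in introns of Nfyc, which encodes a subunit of the transcription factor NF-Y. The hairpin mir-30f has the coordinates of mir-30e on the other strand. On chromosome 15, mir-30b (chr15:68337415-68337510, minus strand), in an exon of Gm26621, lay 3697 bases from mir-30d (chr15:68341208-68341289, minus strand), in exons of Gm20732 and Gm37296. These are positions in this assembly, not in the build behind the deposited table, which the sources used here do not give.

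The 7 counts did not stand for 7 independent measurements. In no library did mir-30c-1 and mir-30c-2 differ by more than 1.48% of their counts, and mir-30e and mir-30f by no more than 1.77%. The sources used here do not give whether reads that fit several hairpins were counted at each or divided among them, nor whether strand was used. Reads of the mir-30c copies, and of mir-30e and the antisense mir-30f, therefore cannot be told apart. Values are given below for 5 read units, with mir-30c-2 and mir-30f named where a count of members needs them.

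The mir-30 family was an abundant part of the blood microRNA pool. With the copies counted once, it took 1.92% ± 0.174 of all counts at 2 months, 1.92% ± 0.214 at 9, 1.98% ± 0.276 at 15, 2.19% ± 0.318 at 24 and 2.04% ± 0.225 at 30 months (SD, n = 5 each). Only mir-30 copies were merged, and the total still held both copies of other hairpins, such as mir-486a and mir-486b. With all 7 rows summed, the mean share was 2.27% at 2, 2.30% at 9, 2.36% at 15, 2.61% at 24 and 2.41% at 30 months. All these shares are of library totals without TMM scaling, so they need not follow the TMM-scaled levels below. With library totals the median log2 change of all tested hairpins at 24 against 2 months was 0.36. Over the 25 libraries mir-30a averaged 7591 CPM and mir-30d 7269 CPM, ranks 15 and 17 of the tested hairpins. The remaining units followed at 2138 CPM for mir-30e, 1631 CPM for mir-30c-1 and 1436 CPM for mir-30b, with mir-30b at rank 32. If reads of the copies were divided between them, the mir-30e and mir-30c-1 rows hold only part of the reads of their units. Reads are of mature molecules of near-equal length, so these levels were not divided by hairpin length. Adapters are known to join different sequences with unequal efficiency, so the order of members is one of reads rather than of molecules. In bulk blood, fewer cells of a type and less RNA per cell cannot be told apart.

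Neighbours in this order did not all stand apart. The mir-30a hairpin was above mir-30d in 13 of 25 libraries, in 4 of 5 at 2 months, 2 at 9, 3 at 15, 3 at 24 and 1 of 5 at 30 months. In all 25 libraries mir-30d was above mir-30e, by 2.21 to 6.10 times. The lower units were close to each other, with mir-30e above mir-30c-2 in 21 libraries and mir-30c-2 above mir-30b in 20. Comparisons of mir-30e with mir-30d and of mir-30c-2 with mir-30b are of single rows, and would shift if reads were divided between copies.

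The spread over all 25 libraries, as a coefficient of variation (CV), was 13.1% for mir-30d, 14.9% for mir-30b, 15.7% for mir-30c-1, 16.6% for mir-30a and 17.1% for mir-30e. The median CV was 29.9% over all tested hairpins and 17.3% over the 38 with a mean of at least 1000 CPM. Among those 38, mir-30d was the fifth steadiest, after mir-92a-1 (9.46%), mir-92a-2 (10.4%), mir-25 (12.1%) and mir-186 (12.6%). The other units held ranks 8 to 18 of the 38, so the family as a whole was about as variable as other abundant hairpins. The ratio of the highest to the lowest library was 1.76 for mir-30d and 2.19 for mir-30e.

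**Figure D1:**
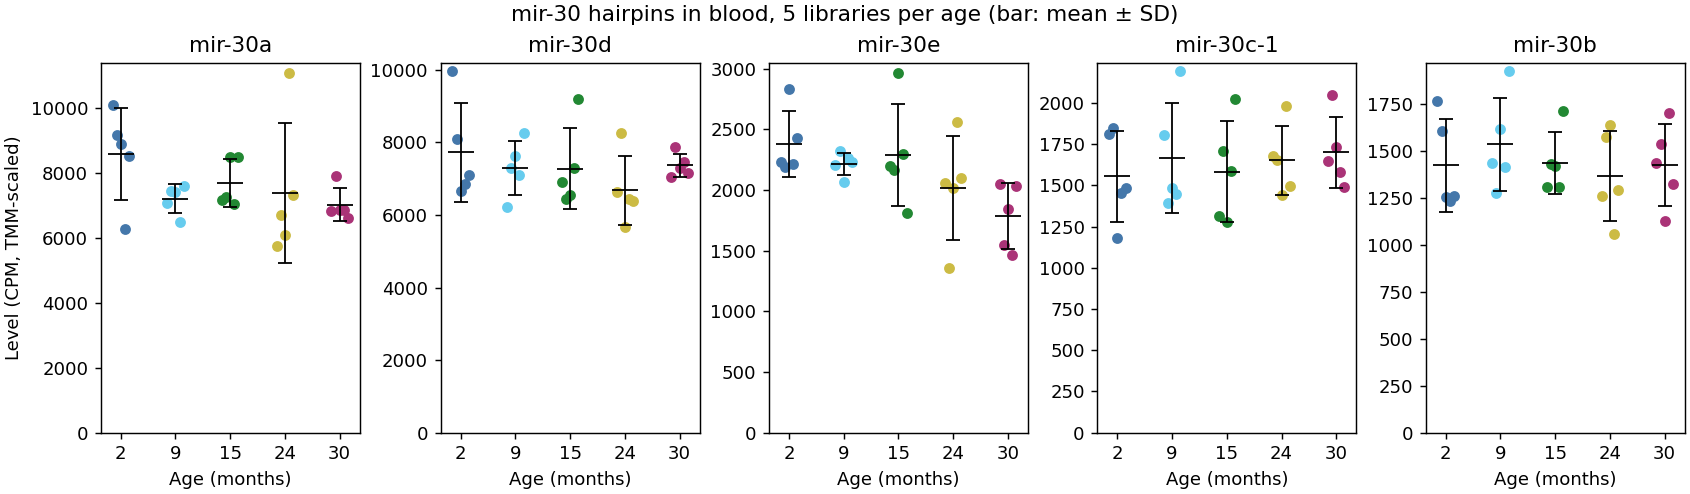
Levels of the 5 mir-30 read units (y axis, TMM-scaled CPM, from 0) in each library against age (x axis, months), with bars for mean ± SD of 5 libraries per age. The 30 months points of mir-30e lie between 1468 and 2049 CPM, below all 2 months points, while the ages overlap in the other panels, and 1 library at 24 months stands at 11107 CPM in the mir-30a panel.

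Of the 5 read units, mir-30e had the largest estimated difference between 30 and 2 months with TMM scaling, but not with library totals, where mir-30c-1 had a larger one. It read 2232, 2187, 2832, 2217 and 2431 CPM in the libraries of 2 months. At 9 months it read 2207, 2318, 2070, 2262 and 2228 CPM, and at 15 months 2201, 2169, 2966, 2300 and 1808 CPM. These ages overlapped those of 2 months. At 24 months it read 2056, 1356, 2017, 2557 and 2100 CPM. At 30 months it read 2049, 1544, 1841, 1468 and 2034 CPM. With TMM scaling, all 5 libraries at 30 months were below the lowest at 2 months, and 4 of 5 at 24 months were, too. At 24 months the log2 change was -0.24 with TMM and 0.14 with library totals. The mean was 1787 ± 271 CPM at 30 months, against 2380 ± 270 CPM at 2 months (SD, n = 5 each). The log2 change was -0.41 (SE 0.15, 95% interval -0.71 to -0.11), or 75.1% of the level at 2 months, and did not pass the threshold of 0.05 (adjusted p = 0.0573, edgeR quasi-likelihood test with Benjamini-Hochberg adjustment over all tested hairpins). The antisense mir-30f gave the same picture, at -0.41 with an adjusted p of 0.0603.

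Whether 30 and 2 months overlapped in mir-30e depended on the scaling. Scaled by library totals alone, mir-30e read 1331 to 2261 CPM at 30 months, against 1793 to 2609 CPM at 2 months, and the ages overlapped. Its log2 change was then -0.16 (adjusted p = 0.674), beside 0.39 for mir-30c-1, 0.24 for mir-30b, 0.19 for mir-30d and -0.04 for mir-30a, none of which passed. With upper quartile factors mir-30e was at -0.37 (adjusted p = 0.0760) and overlapped, at 1541 to 2083 CPM at 30 months, against 1911 to 2677 CPM at 2 months. With DESeq2-type size factors it was at -0.44 and did not overlap. TMM factors were 0.907 to 1.23 in the libraries of 30 months and 0.803 to 0.961 in those of 2 months. Of the 7 members, 2 (mir-30e and mir-30f) did not overlap between these ages with TMM, where 10.7% of all tested hairpins did not, and the same 2 did not with DESeq2-type size factors, beside 9.76%. With library totals 0 of 7 were apart, beside 15.4% of all tested hairpins, and with upper quartile factors 0 of 7, beside 9.76%.

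The family's most abundant member, mir-30a, best known for its repression of Beclin 1, had its highest mean at 2 months with TMM scaling. Its libraries read 10106, 9169, 8905, 6272 and 8525 CPM at 2 months, 7085, 7465, 7434, 6510 and 7596 CPM at 9 months, and 7178, 7279, 8507, 7051 and 8516 CPM at 15 months. At 24 months they read 5755, 6720, 6092, 11107 and 7334 CPM, and at 30 months 6845, 7930, 6872, 6882 and 6630 CPM. The libraries of 2 months spread widely, and their lowest lay below every library of 30 months. All 5 libraries at 30 months were below the mean of 2 months. The log2 change at 30 months was -0.29 (SE 0.14, 95% interval -0.59 to 0.01, adjusted p = 0.203).

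The fourth 24 months library had both the highest mir-30a level (11107 CPM) and the lowest mir-30b level of all 25, and was also the shallowest. With it, mir-30a had a log2 change of -0.22 at 24 against 2 months (SE 0.14, 95% interval -0.51 to 0.08, adjusted p = 0.361), which turned to 0.15 with library totals. Without it the change was -0.41 with an adjusted p of 0.0413, past the threshold, so this library decides the call. The other units stood at -0.06 for mir-30b, 0.09 for mir-30c-1, -0.21 for mir-30d and -0.24 for mir-30e with it, and none of them passed with or without it.

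The abundant mir-30d, known from pancreatic beta cells, where it favours insulin gene expression, had levels at 30 months close to those at 2 months. It read 9968, 8082, 6665, 6858 and 7092 CPM at 2 months, 6221, 7281, 7620, 7087 and 8265 CPM at 9 months, and 6906, 6425, 6547, 7296 and 9181 CPM at 15 months. At 24 months it read 6626, 8269, 5668, 6439 and 6371 CPM, and at 30 months 7051, 7870, 7306, 7472 and 7153 CPM. All 5 libraries at 30 months lay within the range of those at 2 months, while 4 of 5 at 24 months lay below the lowest at 2 months. The log2 change at 24 months was -0.21 (SE 0.12, adjusted p = 0.304), and turned to 0.15 with library totals. At 30 months it was -0.07 (SE 0.12, 95% interval -0.33 to 0.19, adjusted p = 0.762), which leaves room for a level of 79.8% to 114% of that at 2 months, and its sign turned to 0.19 with library totals.

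Its neighbour mir-30b ran from 1124 to 1701 CPM at 30 months, against 1231 to 1767 CPM at 2 months, a log2 change of 0.00 (SE 0.15, 95% interval -0.30 to 0.30, adjusted p = 0.998). The mir-30c units, of which miR-30c is known to repress connective tissue growth factor in heart, had estimates above 0. Levels of mir-30c-1 were 1490 to 2051 CPM at 30 months, against 1178 to 1848 CPM at 2 months, a log2 change of 0.13 (SE 0.15, 95% interval -0.19 to 0.45, adjusted p = 0.640). Neither of these passed the test, and the ages overlapped in both.

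Read as a count, 0 of 7 members passed the test at 30 against 2 months, where 14.2% of all tested hairpins did. An unadjusted p under 0.05 was reached by 2 members, mir-30e and mir-30f. With DESeq2 both passed at a log2 change of -0.44 (adjusted p = 0.0263 and 0.0293), as they did in edgeR with DESeq2-type size factors (0.0438 and 0.0464). The median log2 change of the 7 members was -0.07, beside -0.04 over all tested hairpins. At 24 against 2 months 0 of 7 passed, with 12.1% of all tested hairpins called and medians of -0.21 for the members and 0.00 for all. At 15 months 0 of 7 passed beside 1.48%, and the log2 changes ran from -0.16 for mir-30a to 0.03 for mir-30c-2. At 9 months 0 of 7 passed beside 2.07%, with changes from -0.25 for mir-30a to 0.11 for mir-30b. No member had an unadjusted p under 0.05 at 24, 15 or 9 months. These comparisons share the libraries of 2 months, so a high or low library there enters each of them.

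A test for a difference between any of the ages called 0 of 7 members in edgeR, with 7.99% of all tested hairpins called and the smallest adjusted p of a member at 0.283, for mir-30e. No member had an unadjusted p under 0.05 in that test either.

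**Figure D2:**
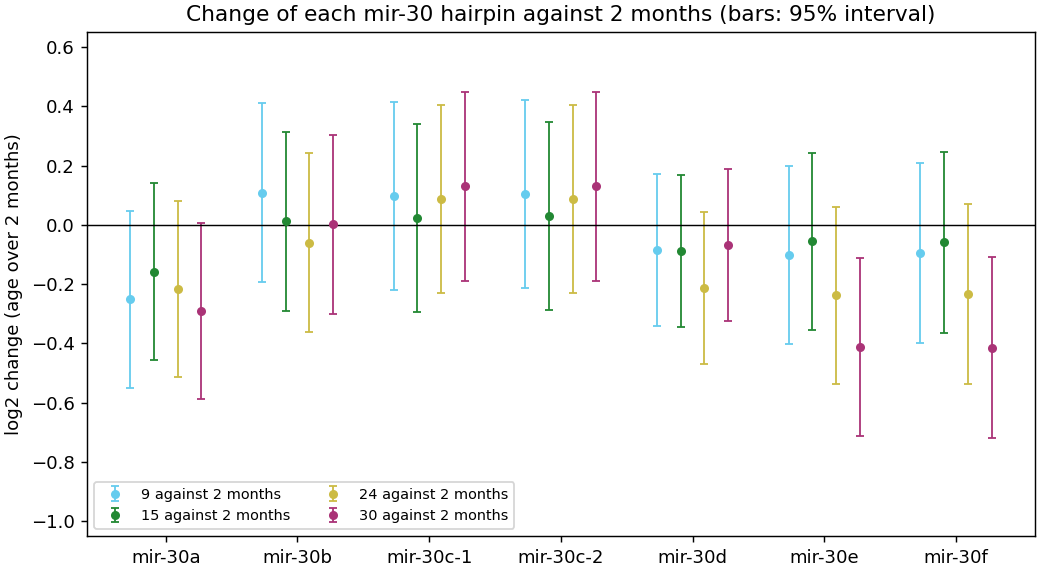
Log2 change of each mir-30 hairpin (x axis) at 9, 15, 24 and 30 months over 2 months (y axis), as points with 95% intervals from edgeR's quasi-likelihood fit. The intervals of mir-30e and mir-30f at 30 months, -0.71 to -0.11 for mir-30e, are the ones that lie wholly below 0.

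A straight line through age was also tested for each member. The level of mir-30e fell by 0.14 on the log2 scale per 10 months (SE 0.04, 95% interval -0.23 to -0.04), to 91.0% for each 10 months, and passed the test (adjusted p = 0.0305). Its antisense mir-30f had a slope of -0.14 (SE 0.05, adjusted p = 0.0323), so 2 of 7 members, which are 1 read unit, passed. Of all tested hairpins 19.8% passed, 9.17% with a falling and 10.7% with a rising level. The other slopes per 10 months were -0.08 for mir-30a (adjusted p = 0.232), -0.04 for mir-30d (0.525), -0.02 for mir-30b (0.746) and 0.04 for mir-30c-1 (0.669). That mir-30e passed and others did not is no test of a difference between them.

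The call on this line was close to its threshold and depended on the fit. It held with DESeq2 (adjusted p = 0.00907), with DESeq2-type size factors (0.0246), with sequencing lane as a term (0.0445) and with age as a rank (0.0353). With library totals the slope was -0.02 (adjusted p = 0.839), and mir-30c-1 and mir-30c-2 passed in its place with a rising level (0.15, adjusted p = 0.0494). With upper quartile factors the slope of mir-30e was -0.11 (0.0541). The call also ended without a filter (slope -0.15, adjusted p = 0.0671), with a filter of 10 CPM (-0.12, 0.0829) and with mir-30e and mir-30f, and the mir-30c copies, each counted once (-0.12, 0.0528). Depth was lower at 30 months, and with all libraries thinned to the smallest the slope was -0.11 (0.0618). When 1 library was left out and the filter and scaling were redone, the call held in 9 of 25 fits, with slopes from -0.15 to -0.09 and adjusted p from 0.0153 to 0.120. Those fits tested 2 to 11 hairpins more, since the filter keeps more of them when an age has 4 libraries. With the tested hairpins and their factors held, an alternative chosen after seeing the data, the call held in 22 of 25 fits and ended without 2 months replicate 3, 30 months replicate 2 or 30 months replicate 4, at slopes no flatter than -0.12 and adjusted p up to 0.0732. Without the 2 months libraries the slope over the remaining ages was -0.14, but with an adjusted p of 0.293.

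**Figure D3:**
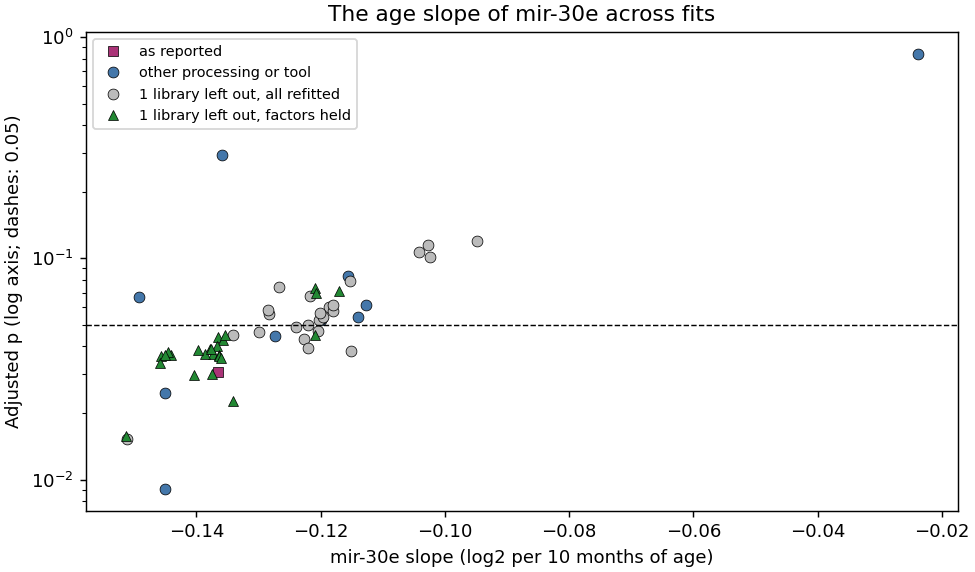
Slope of mir-30e in log2 units per 10 months (x axis) and its adjusted p (y axis, log scale) as reported (square), under other processing or tools, and with 1 library left out, either refitted throughout or with filter and factors held (triangles); the fit with age as a rank is not drawn, since its slope has another unit. All slopes are negative, from -0.15 to -0.02, while the adjusted p lies on both sides of 0.05 (dashes).

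Ratios within a library do not depend on the scaling between libraries, so hairpins that neighbour each other in the genome were set against one another. The mir-30c-1 and mir-30c-2 rows cannot be told apart, so ratios to them share a denominator and do not belong to a single locus. For the pair at Nfyc the ratio of mir-30e to mir-30c-1 was 1.07 ± 0.244 at 30 months, against 1.60 ± 0.490 at 2 months (SD, n = 5 each). All 5 libraries at 30 months were below the mean of 2 months, but the ages overlapped. The difference of mean log2 ratios was -0.56 (p = 0.0476, adjusted p = 0.210 over 12 ratio tests, two-sided exact permutation test, smallest possible p 0.00794).

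On chromosome 1 the ratio of mir-30a to mir-30c-2 was 4.16 ± 0.251 at 30 months, against 5.64 ± 1.24 at 2 months, a log2 difference of -0.42 (p = 0.0238, adjusted p = 0.210, exact permutation test). It too was below the mean of 2 months in 5 of 5 libraries, and the ages overlapped, but it shares the mir-30c reads with the ratio above. On chromosome 15 the ratio of mir-30d to mir-30b was 5.27 ± 0.783 at 30 months, against 5.44 ± 0.261 at 2 months, a log2 difference of -0.06 (p = 0.595, adjusted p = 0.649, exact permutation test). None of the 12 ratio tests, 3 pairs at 4 ages against 2 months, passed after adjustment, and 2 had an unadjusted p under 0.05. A single ratio could not pass alone, since even the smallest possible p of 0.00794 stays above 0.05 after adjustment over 12 tests. That none passed is therefore no sign that the ratios were equal.

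**Figure D4:**
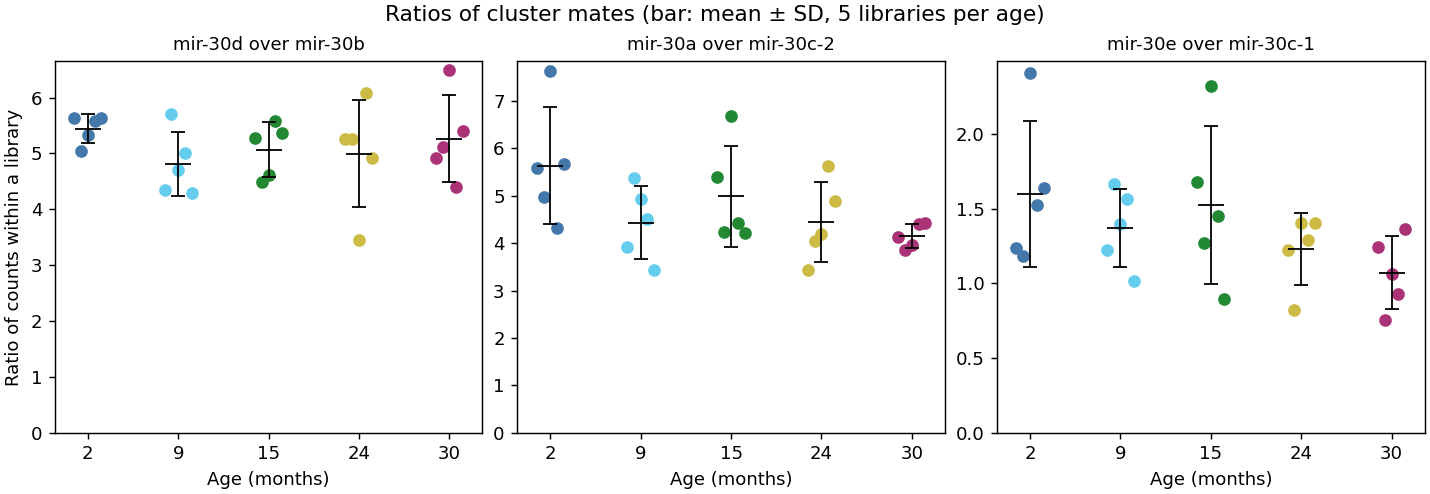
Ratio of counts of neighbouring mir-30 hairpins within a library (y axis, from 0) against age (x axis, months), with bars for mean ± SD of 5 libraries per age. The ratio of mir-30e to mir-30c-1 averages 1.07 at 30 months and 1.60 at 2 months with overlapping points, and that of mir-30d to mir-30b averages 5.27 at 30 months and 5.44 at 2 months.

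Shares within the family show the same values without any outside scale. Copies count once, so the mir-30e and mir-30c shares would be higher if their reads were divided between copies. At 30 months mir-30e made up 9.30% ± 1.71 of the family, against 11.2% ± 2.04 at 2 months, and mir-30a 36.4% ± 0.906, against 39.5% ± 2.97. The shares of mir-30d (38.2% ± 0.841 against 35.6% ± 2.73) and mir-30c (8.79% ± 0.721 against 7.19% ± 1.0) were higher in mean at 30 than at 2 months, and mir-30b made up 7.37% ± 1.06 at 30 months, against 6.55% ± 0.476 (SD over 5 libraries). Shares add up to a fixed sum, so a lower share of one unit raises the others, and they were not tested.

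The members did not all vary together from library to library. Spearman's rho over the 25 libraries, which share their scaling and age groups, was -0.34 between mir-30e and mir-30c-1, the pair in Nfyc. It was 0.28 between mir-30a and mir-30c-2 and 0.50 between mir-30b and mir-30d, the other pairs of neighbours. Across loci it was 0.46 between mir-30a and mir-30e and -0.41 between mir-30b and mir-30e. These values are descriptions, and the mir-30c-1 and mir-30c-2 rows in them cannot be told apart.

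Outside the family, the hairpins whose levels were most like those of mir-30e belonged to let-7, the family known for repressing growth and stem cell genes. Of 145 hairpins with a mean of at least 10 CPM outside the mir-30 family, rho with mir-30e over the 25 libraries was highest for let-7g (0.83), let-7a-1 (0.80) and let-7f-1 (0.79). Their mature products are shown because their seed differs from that of mir-30:
let-7g-5p: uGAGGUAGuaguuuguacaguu
let-7a-5p: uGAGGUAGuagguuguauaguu
let-7f-5p: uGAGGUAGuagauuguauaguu
Within ages, rho of mir-30e with let-7g was 0.60 at 2, 0.70 at 9, 0.90 at 15, 0.70 at 24 and 0.80 at 30 months (n = 5 each). With 5 libraries such values are imprecise. Since let-7g was picked for its rho over these same libraries, they are no separate support. Over all 25 libraries rho to let-7g was 0.19 for mir-30a, -0.33 for mir-30d, -0.51 for mir-30b and -0.54 for mir-30c-1. Within the 5 ages it ran from -0.70 to 0.10 for mir-30a, from -0.90 to -0.20 for mir-30d and from -1.0 to -0.60 for mir-30b. For mir-30c-1 it ran from -1.0 to 0.60, the highest at 24 months. Mean levels of let-7g were 555 ± 127 CPM at 2, 446 ± 195 at 9, 451 ± 196 at 15, 312 ± 115 at 24 and 253 ± 115 CPM at 30 months. Its log2 change at 30 against 2 months was -1.13 (SE 0.37, adjusted p = 0.0412), beside -0.63 for let-7a-1 (SE 0.24, adjusted p = 0.0818) and -1.33 for let-7f-1 (SE 0.36, adjusted p = 0.0178).

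**Figure D5:**
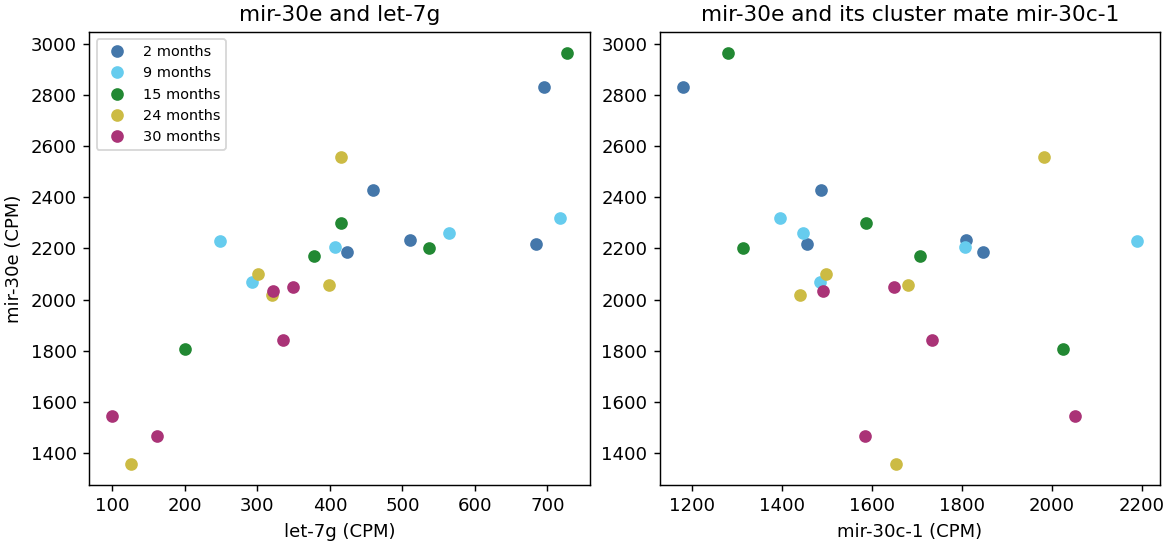
Level of mir-30e (y axis, CPM) against let-7g (left) and against mir-30c-1 (right) (x axes, CPM; axes do not start at 0), 1 point per library coloured by age. Spearman's rho over the 25 libraries is 0.83 with let-7g and -0.34 with mir-30c-1.

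The remaining members had other closest hairpins. For mir-30a they were mir-186 (rho 0.58), mir-1964 (0.52) and mir-3473d (0.48). For mir-30d they were mir-674 (0.83), mir-92a-2 (0.74) and mir-3473d (0.72), and for mir-30b mir-140 (0.84), mir-700 (0.80) and mir-191 (0.75). For mir-30c-2 they were mir-324 (0.71), mir-186 (0.58) and mir-3473d (0.58). The rare mir-3473d was thus among the closest 3 for mir-30a, mir-30c-2 and mir-30d.

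Other microRNAs known as brakes on fibrosis and epithelial-mesenchymal transition were read beside the family, on a list chosen with earlier results of these data known. Of 12 tested, 1 fell and 0 rose at 30 against 2 months, where 5.03% of all tested hairpins fell and 9.17% rose, and the median log2 change was -0.33, beside -0.04 over all tested hairpins. The member that fell was mir-26b, of a family known to repress the chromatin enzyme Ezh2, at 416 ± 153 CPM at 30 months, against 826 ± 212 CPM at 2 months (log2 change -0.99, SE 0.32, adjusted p = 0.0399). The members with the next smallest adjusted p were mir-101a at -1.30 (SE 0.47, adjusted p = 0.0614) and mir-200a, of the epithelial mir-200 family, at -2.03 (adjusted p = 0.102). The level of mir-200a averaged 0.714 CPM over all libraries, close to the floor of the smallest.

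On the list of microRNAs known to regulate autophagy genes, 14 were tested, and 1 rose and 1 fell at 30 against 2 months, beside 9.17% and 5.03% of all tested hairpins. The median log2 change was -0.39, beside -0.04 over all. The one that rose was mir-23b, at 16.3 ± 1.5 CPM at 30 months, against 10.9 ± 2.43 CPM at 2 months (log2 change 0.58, SE 0.14, adjusted p = 0.00810). The one that fell, mir-199a-1, was at 0.351 ± 0.185 CPM at 30 months, against 1.18 ± 0.0658 CPM at 2 months (log2 change -1.66, adjusted p = 0.00755), where single libraries hold few counts. On the line through age, where 9.17% of all tested hairpins fell and 10.7% rose, 4 fell and 1 rose on this list, and 3 fell and 0 rose on the fibrosis list. Both mir-199a-1 and mir-199a-2 are among those 4. On both lists mir-101a was among the 3 with the smallest adjusted p at 30 against 2 months.

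The labelled tissue was checked on cell type marker lists. Red cell hairpins led, with mir-486a at 296074 CPM on average. The summed share of the 13 erythroid markers was 84.4% to 88.9% at 30 months, against 86.7% to 88.7% at 2 months, counting mir-486a and mir-451a again as mir-486b and mir-451b, their antisense hairpins with like counts. At 30 against 2 months, where 9.17% of all tested hairpins rose and 5.03% fell, 2 of 12 tested erythroid markers rose and 1 fell. Of 7 tested myeloid markers 4 rose and 0 fell, with a summed share of 1.12% to 1.84% at 30 months, against 0.969% to 1.42% at 2 months. The most abundant was mir-142b at 8177 CPM, a level close to that of mir-142a (8183 CPM), which is not on the list. That share was mostly mir-142b and mir-21a (5889 CPM), neither of which passed (adjusted p = 0.676 and 0.779 in edgeR). It therefore need not follow the 4 markers that rose. Of 9 lymphocyte markers 1 rose and 0 fell, led by mir-181a-2 at 695 CPM. Of 8 platelet and endothelial markers 1 rose and 3 fell, led by mir-221 at 379 CPM. Of 5 epithelial markers 1 rose and 1 fell, led by mir-141 at 59.4 CPM. Of 3 liver and 3 muscle markers none passed in edgeR, led by mir-192 at 4250 CPM and mir-133a-2 at 25.4 CPM. Hairpins of a list can be copies or neighbours of each other, so these counts are not of independent markers. The summed share of the liver markers, mostly mir-192, was 0.468% to 0.617% at 30 months, against 0.287% to 0.362% at 2 months, with no overlap. Such shares are of library totals, where 15.4% of all tested hairpins did not overlap. With TMM in edgeR, mir-192 had a log2 change of 0.49 (adjusted p = 0.0581). The changes of mir-194-1 and mir-194-2 were -0.01 and 0.01 (adjusted p = 0.987 each). The summed share of the muscle markers was 0.00104% to 0.00449% at 30 months, against 0.00240% to 0.0207% at 2 months. The defining hairpins mir-122 of liver and mir-1a-1 of muscle held at most 24 counts and 1 count in any library. The part of these cell types in the level of mir-30e was not tested.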

How the data were processed

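The authors deposited 1 table of raw counts, the number of reads assigned to each microRNA hairpin in each of 25 libraries. Per the labels' protocols, libraries were built with a TruSeq small RNA kit. Per the submitters' processing notes, SAMtools 1.3.1-9, Trimmomatic 0.36 and bcl2fastq 1.8.4 were used; the sources used here do not give the aligner, counter, microRNA release, build or use of strand. Without molecular identifiers, floors reflect counting error alone. Hairpin arms are not separated.

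Ages come from the labels, and every column had a label. None of 50 pairs of same-age libraries matched within sampling noise (chi-square per degree of freedom at least 65.6). Animals carry separate numbers; replicate numbers are only names. Lanes 3 to 8 were spread unevenly over the ages (none of 2 or 30 months in lane 3, 2 of 30 months in lane 6). The alphabetical order of the index sequences follows age, except in 30 months replicate 4 and replicate 5. Each library has its own index, so index and age cannot be told apart.

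Tests were edgeR 4.0.16 quasi-likelihood F tests (R 4.3.3; TMM, expression filter by age, robust dispersions) in 1 fit over all 25 libraries, tested on simulated data, with Benjamini-Hochberg adjustment over all tested hairpins and a threshold of 0.05. The filter left out 855 of 1193 hairpins, 328 of them at 0 throughout, and kept at least 99.99% of counts. SE is the log2 change over the square root of F. Ratios used a pseudocount of 0.5 and a two-sided exact permutation test. DESeq2 1.42.0, other scalings and filters, lane, thinning to the smallest library, copies counted once and left-out libraries were alternatives.

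Members and lists were chosen with earlier results of these data known. Named hairpins are the 7 members and the 3 closest by Spearman's rho to each of 5 units among those of at least 10 CPM. Also named are up to 3 of the fibrosis and autophagy lists by adjusted p at 30 against 2 months, and the most abundant of each marker list. Those named for steadiness, for a shared seed, for their part in a marker list, or as defining liver and muscle hairpins were added after their values were seen. Hairpin positions and mature sequences come from RefSeq on GRCm38.p6, with host genes from GENCODE vM21.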

Additional observations from a re-analysis of the deposited data

Results flagged for a closer look

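At 30 months, 4 of the mir-30a levels lay between 6630 and 6882 CPM, and 30 months replicate 2 stood apart at 7930 CPM. Its gap to the nearest library was 0.807 of the range of the 5 libraries, above Dixon's 95% critical value for 5. It was the only one of 50 groups of 5 libraries tested to exceed that value, and chance alone exceeds it in about 1 group in 20. This library also had the second lowest mir-30e level at 30 months, 1544 CPM.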

How the results depend on the processing

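The number of mir-30 members past the threshold at 30 against 2 months was 0, and 2 with DESeq2-type size factors and with DESeq2. At 24 against 2 months it was 0, and 0 to 1 with 1 library left out. For the line through age it was 2, and 0 with upper quartile factors, no filter, a filter of 10 CPM, thinned libraries, copies counted once or without the 2 months libraries; with 1 library left out it was 0 to 2, and 0 to 3 with filter and factors held, where mir-30a joined without 24 months replicate 4 (-0.10 per 10 months, adjusted p = 0.0446). With library totals it was again 2, but these were the rising mir-30c-1 and mir-30c-2 (0.15, adjusted p = 0.0494). Over all hairpins the line called 67, and 39 without a filter, 38 at 10 CPM and 9 without the 2 months libraries. Library totals moved the median log2 change of all hairpins to 0.20 at 30, 0.36 at 24, 0.11 at 15 and 0.13 at 9 against 2 months, and 15 of 35 member results changed sign with it: at 30 months mir-30d (0.19), at 24 months mir-30a (0.15), mir-30b (0.31), mir-30d (0.15), mir-30e (0.14) and mir-30f (0.15), at 15 months mir-30d (0.045), mir-30e (0.084) and mir-30f (0.081), at 9 months mir-30d (0.032), mir-30e (0.018) and mir-30f (0.026), and per 10 months mir-30a (0.032), mir-30b (0.082) and mir-30d (0.070). Other sign changes were of values near 0. For mir-30b they were at 30 months -0.018 (DESeq2 and its size factors), -0.020 (no filter), -0.019 (10 CPM) and -0.015 (lane), at 24 months 0.030 (upper quartile) and 0.043 (10 CPM), at 15 months -0.0077 and per 10 months 0.0096 (upper quartile). Without a filter they were 0.0043 for mir-30d, 0.032 for mir-30e and 0.028 for mir-30f at 15 months, and without the 2 months libraries 0.010 per 10 months for mir-30d. With 1 library left out, ranges that crossed 0 were at 30 months -0.023 to 0.13 (mir-30b) and -0.058 to 0.080 (mir-30d), at 24 months -0.098 to 0.062 (mir-30b), at 15 months -0.028 to 0.12 (mir-30b), -0.048 to 0.16 (mir-30c-1), -0.042 to 0.16 (mir-30c-2), -0.15 to 0.036 (mir-30d), -0.11 to 0.046 (mir-30e) and -0.12 to 0.043 (mir-30f), at 9 months -0.0030 to 0.19 (mir-30c-1) and -0.12 to 0.017 (mir-30d), and per 10 months -0.028 to 0.012 (mir-30b) and -0.033 to 0.0077 (mir-30d). The ratio of mir-30d to mir-30b at 30 months ran from -0.14 to 0.0044. That of mir-30e to mir-30c-1 at 15 months ran from -0.26 to 0.085. No ratio passed under any alternative, where again a single ratio could not pass alone. In all, 22 of 54 single results changed sign somewhere, 0 of them while past the threshold. The cause was not tested. No paired analysis was possible because replicate numbers follow sample order and each library is from its own animal. Shallow libraries of 30 months limit the precision of rare hairpins more than that of the abundant mir-30 members.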

Other observations

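Base composition of the hairpins was set beside their change with age as a description. Across the 285 tested hairpins (84.3%) with a RefSeq hairpin sequence, the share of G and C had a Spearman's rho of 0.12 with the log2 change at 30 against 2 months, and 0.25 across 132 of the 152 with a mean of at least 10 CPM. Hairpins are not independent replicates, and all points share the same libraries. In the mature products, which are only part of the hairpins compared above, the share of G and C was 45.5% in miR-30a-5p, 43.5% in miR-30c-5p and 40.9% in miR-30e-5p. It was 36.4% in let-7g-5p and in let-7a-5p and 31.8% in let-7f-5p, the products of the hairpins closest to mir-30e. The part of base composition in the level of mir-30e was not tested.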
